A study of Homo sapiens with 9 samples.

Results

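The 10 genes described here are the core repressors of the human circadian clock with the activator CLOCK and the nuclear receptors that feed back on it: PER1, PER2, PER3, CRY1, CRY2, CLOCK, BHLHE40, BHLHE41, NR1D1 and NR1D2. They were matched by symbol to the annotation of the array's probe sets, which are groups of short probes that together give 1 value. Of the 10 genes, 8 had a probe set that carries no other gene symbol, out of 19775 genes with such a probe set on the array. Where a gene had several, the brightest by its 9-array mean gave its main value. PER1 and NR1D1 were found only in probe sets that also carry the symbol of an overlapping gene, and these are described apart from the other 8.

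The cells were H295R, a steroid-producing line from a human carcinoma of the adrenal cortex. They were treated for 3 h with the solvent DMSO as control, with angiotensin II at 100 nM or with torcetrapib at 100 nM, which the labels list as the test compound CP-529414. Each group held 3 arrays of total RNA, and no label names a further treatment or a genetic change. Angiotensin II is the peptide hormone that makes the adrenal cortex secrete aldosterone, torcetrapib inhibits the cholesteryl ester transfer protein, and the study's question was whether inhibitors of this protein activate the angiotensin pathway in adrenal cells. Nothing in the labels says whether the 3 arrays of a group stand for separate cultures, and p-values therefore cover only the spread among these arrays, which may be technical.

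In the clock of mammalian cells, CLOCK pairs with BMAL1 on E-box sequences and drives the genes of its own repressors. PER and CRY proteins enter the nucleus and block that pair, BHLHE40 and BHLHE41 compete for the same E-boxes, and the NR1D receptors repress the BMAL1 gene. Several of these repressor genes, PER1 above all, also respond within hours to hormones and to cAMP or calcium signals, which is one way that peripheral clocks are reset, and the adrenal gland is known for a strong daily rhythm of steroid output.

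All values are log2 expression after robust multi-array averaging (RMA). Across genes, which are not independent replicates, r was 0.9964 to 0.9985 between arrays within a group and 0.9933 to 0.9977 otherwise. Of 9 adrenocortical marker genes, 8 were measured and 7 had a mean above that of the median gene (6.73). Of the markers of other cell types, 2 of 5 for adrenal medulla, 0 of 3 immune, 0 of 3 endothelial and 1 of 3 fibroblast genes did. The mean over the adrenocortical markers was 9.11 to 9.24 for DMSO, 9.32 to 9.46 for angiotensin II and 9.21 to 9.29 for torcetrapib, with angiotensin II above the other groups. The markers did not move together. With angiotensin II, FDX1 averaged 12.30 against 11.64 with DMSO and MC2R 7.34 against 6.93. NR5A1 (7.04 against 7.08) and HSD3B2 (8.49 against 8.61) were lower, and the other measured ones higher by less than FDX1 and MC2R. The mean over the medulla markers lay between 6.14 and 6.30 on every array. The immune mean was 4.45 to 4.59 for DMSO, 4.52 to 4.71 for angiotensin II and 4.57 to 4.61 for torcetrapib. The endothelial mean was 4.89 to 5.04, 5.06 to 5.19 and 4.88 to 4.99 in the same order, and the fibroblast mean 5.84 to 5.88, 5.85 to 6.03 and 5.69 to 5.93. A 5′ to 3′ index of the RNA, the mean log2 difference between 5′ and 3′ control probe sets of ACTB and GAPDH, averaged -0.50 ± 0.22 (SD, n = 3) over the DMSO arrays, -0.62 ± 0.02 over those of angiotensin II and -0.24 ± 0.03 over those of torcetrapib. An exact two-sided permutation test of the index gave p = 0.1 for torcetrapib against either other group, the smallest p that 3 against 3 arrays allow, and p = 0.5 for angiotensin II against DMSO. The part of the index and of these markers in the results was not tested beyond the fit with the index as a covariate. The index was -0.28 to -0.22 on the torcetrapib arrays and -0.63 to -0.60 on the angiotensin II arrays, without overlap. Between these groups that fit can therefore hardly tell index from treatment, and a call lost in it is not assigned to either.

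The promoters of the genes that the results turn on are shown first, because the known inputs to the clock act through short motifs there. RefSeq (GRCh38.p14) gave 14 windows of 300 bases, 250 before and 50 after a transcript start, for all 10 genes. Of these, 260 bases are printed per gene, 5′ to 3′ on the strand of the gene, with 250 bases before the start and 10 after it. Capitals mark matches on either strand to the searched motifs: the E-box CACGTG, the cAMP response element TGACGTCA, its shorter core TGACG (which also lies within the full element), the D-boxes TTATGTAA and TTACGTAA, and the nuclear receptor motif AGGTCA. Positions count from 1 at the start, with -1 as the base before it. PER1 (chr17:8152395-8152654, minus strand) holds an E-box at position -173 and an AGGTCA match at -144, which reads TGACCT on the printed strand. BHLHE40 (chr3:4979187-4979446, plus strand) and BHLHE41 (chr12:26125028-26125287, minus strand) each hold an E-box, at -245 and at -48. PER2 (chr2:238288601-238288860, minus strand) holds TGACG at -53 and a D-box from -3 to 5, and CRY1 (chr12:107093540-107093799, minus strand) holds TGACG at -18.
PER1: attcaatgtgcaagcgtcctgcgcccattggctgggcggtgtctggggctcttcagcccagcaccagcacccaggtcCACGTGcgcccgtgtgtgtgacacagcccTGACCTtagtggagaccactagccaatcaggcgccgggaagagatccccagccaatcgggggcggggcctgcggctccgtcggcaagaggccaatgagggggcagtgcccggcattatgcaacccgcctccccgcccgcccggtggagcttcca
BHLHE40: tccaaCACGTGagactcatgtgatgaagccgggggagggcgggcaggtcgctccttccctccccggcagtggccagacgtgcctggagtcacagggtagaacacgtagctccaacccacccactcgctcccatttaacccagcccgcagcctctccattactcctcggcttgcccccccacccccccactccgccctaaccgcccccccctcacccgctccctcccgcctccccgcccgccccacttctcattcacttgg
BHLHE41: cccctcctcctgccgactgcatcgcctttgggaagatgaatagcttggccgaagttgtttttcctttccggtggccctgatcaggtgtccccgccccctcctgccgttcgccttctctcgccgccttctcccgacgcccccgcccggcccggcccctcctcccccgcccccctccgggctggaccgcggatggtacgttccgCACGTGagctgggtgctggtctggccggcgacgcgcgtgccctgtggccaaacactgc
PER2: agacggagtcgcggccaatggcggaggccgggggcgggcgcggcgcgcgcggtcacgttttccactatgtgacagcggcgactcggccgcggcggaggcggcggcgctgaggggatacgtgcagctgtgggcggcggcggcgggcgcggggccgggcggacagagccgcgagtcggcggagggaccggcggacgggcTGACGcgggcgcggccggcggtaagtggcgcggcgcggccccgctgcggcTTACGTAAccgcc
CRY1: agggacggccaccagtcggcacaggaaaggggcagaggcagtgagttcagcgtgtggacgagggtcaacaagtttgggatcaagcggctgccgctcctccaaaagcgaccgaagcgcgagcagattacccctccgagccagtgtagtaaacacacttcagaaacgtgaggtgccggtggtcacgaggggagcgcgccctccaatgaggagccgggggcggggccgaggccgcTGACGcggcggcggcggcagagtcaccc

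The E-box stood in 4 of the 14 clock windows (28.6%), those of PER1, BHLHE40, BHLHE41 and NR1D2, against 7.26% of all 35116 promoter windows of the same length. TGACG stood in 7 of 14 windows (50%) of PER2, CRY1, CRY2, CLOCK and NR1D2, against 24.6% of all windows. The full cAMP response element was in 0 of 14 windows and in 1.85% of all. The D-box TTATGTAA was in 2 of 14 windows (14.3%), of PER3 and NR1D2, against 0.886% of all, and TTACGTAA in 1 of 14 (7.14%), of PER2, against 0.125%. AGGTCA was in 3 of 14 windows (21.4%), of PER1 and CRY2, against 13.8% of all. The windows are short and some belong to the same gene, so these shares describe the letters in them and no more.

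Angiotensin II raised 4 of the 8 clock genes against DMSO, where 3.36% of all genes were higher: BHLHE40 1.86-fold, PER2 1.22-fold, CRY1 1.20-fold and BHLHE41 1.12-fold. Without DMSO replicate 1, angiotensin II replicate 3 or torcetrapib replicate 1 or 2, 1 of these calls, BHLHE40, was left. In those fits 5.1% to 5.92% of all genes were called. The other 4, PER3, CRY2, CLOCK and NR1D2, did not pass the test. With the 5′ to 3′ index as a covariate, PER2 and BHLHE41 no longer passed against DMSO, while CLOCK did (-0.22, adjusted p = 0.0142 by limma). With torcetrapib at the same dose, 0 of the 8 passed on their main probe sets, where 1.16% of all genes were called, while a second NR1D2 probe set was lower (-0.29, adjusted p = 0.0141 by limma over all probe sets). Set directly against angiotensin II, torcetrapib left BHLHE40, BHLHE41 and CRY1 lower on their main probe sets. The second BHLHE40 probe set gave -0.05 and the mean of the 4 BHLHE41 probe sets 0.035. NR1D2 was higher on its main probe set and lower on the second. Between the treatments, CRY1 and NR1D2 did not pass with the index as a covariate, a fit that there can hardly tell index from treatment. Apart from these 8, 3 of the 4 probe sets that PER1 shares with a microRNA gene rose with angiotensin II, by 0.92 to 1.44 on the log2 scale, and did not pass the test with torcetrapib. In bulk RNA such as this, fewer cells of a type and less RNA per cell cannot be told apart.

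The tests were limma's moderated test over all 19775 genes with Benjamini-Hochberg adjustment and a threshold of 0.05. Angiotensin II against DMSO called 6.12% of all genes, 3.36% higher and 2.76% lower, and of the 8 clock genes 4 were higher and 0 lower. The median change of the 8 was 0.18 on the log2 scale, against 0.01 over all genes. At an unadjusted p under 0.05, 7 of the 8 passed, against 16.5% of all genes. All 3 angiotensin II arrays lay above all 3 DMSO arrays for 5 of the 8 genes (9.26% of all genes), and below them for 1 gene, CLOCK (8.37% of all).

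Torcetrapib against DMSO called 1.16% of all genes, 0.592% higher and 0.566% lower, and 0 of the 8 clock genes by limma's test. At an unadjusted p under 0.05, 2 of the 8 passed, PER3 and BHLHE41, against 13.3% of all genes. These were also the 2 genes whose torcetrapib arrays all lay below all DMSO arrays, which 10.5% of all genes did. No clock gene lay wholly above DMSO, which 6.04% of all genes did. The median change of the 8 was -1.8e-05, against -0.03 over all genes.

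Torcetrapib against angiotensin II, at a matched dose and time, called 11.3% of all genes, 4.61% higher and 6.68% lower, and of the 8 clock genes 1 was higher and 3 lower. At an unadjusted p under 0.05, 7 of the 8 passed, against 24.8% of all genes. The arrays did not overlap for 7 of them, 6 lower with torcetrapib (18.4% of all genes) and 1 higher (10.3% of all). The median change of the 8 was -0.22, against -0.04 over all genes. The comparisons of either treatment with DMSO share the same 3 control arrays, and each pair of comparisons shares a group. With the 5′ to 3′ index as a covariate, 1.42% of all genes were called between the treatments. Of the 8 clock genes BHLHE40 (-0.79, adjusted p = 7.94e-05 by limma) and BHLHE41 (-0.36, adjusted p = 0.0328) passed, but not CRY1 (-0.34, adjusted p = 0.274) or NR1D2 (0.15, adjusted p = 0.695). The standard error for CRY1 was 0.11 in that fit, against 0.07 without the index.

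**Figure D1:**
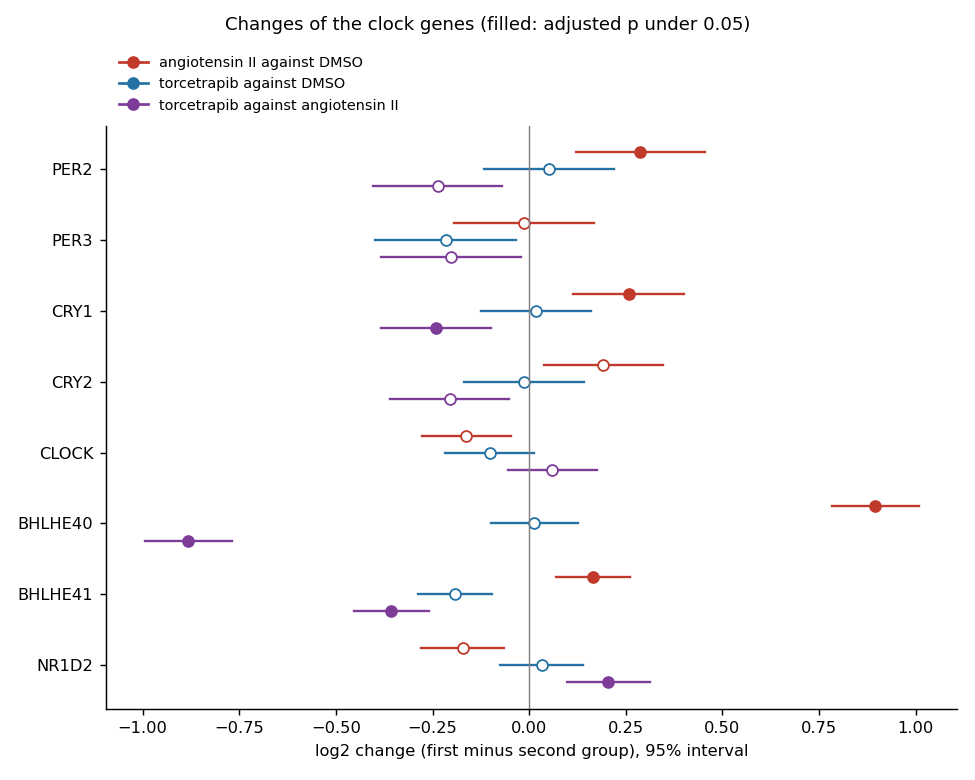
Log2 change of each of the 8 clock genes in the 3 comparisons (x axis, first minus second group), with its 95% interval; filled points passed limma's adjusted threshold of 0.05. BHLHE40 stands at 0.90 for angiotensin II against DMSO and at 0.01 for torcetrapib against DMSO, and the changes of the other 7 genes lie between -0.36 and 0.29.

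The BHLHE genes code for basic helix-loop-helix repressors, also known as DEC1 and DEC2. BHLHE40 was at 9.51, 9.40 and 9.54 on the DMSO arrays, at 10.41, 10.32 and 10.41 on the angiotensin II arrays, and at 9.49, 9.47 and 9.53 on the torcetrapib arrays. The angiotensin II arrays stood clear of the other 6, which overlapped each other. The rise with angiotensin II was 0.90 ± 0.05 (SE), or 1.86-fold, with an adjusted p of 1.12e-08 by limma, and it was the rank 159 change in size among 19775 genes. The change with torcetrapib was 0.01 (95% interval -0.10 to 0.13, adjusted p = 0.953), and torcetrapib was 1.84-fold below angiotensin II (-0.88 ± 0.05, adjusted p = 1.86e-08). The calls with angiotensin II and between the treatments held in 20 of 20 alternative analyses, with changes of 0.71 to 0.92 and of -0.91 to -0.46. The -0.46 is that of the mean of its 2 probe sets.

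A second BHLHE40 probe set, 201169_s_at, gave another picture. It was at 6.28, 7.03 and 6.84 with DMSO, at 7.20, 7.10 and 7.41 with angiotensin II and at 7.12, 7.25 and 7.20 with torcetrapib. Here both treatments lay above DMSO, whose 3 arrays spread widely. In a limma fit over all 54613 probe sets that are not controls, its change was 0.52 ± 0.16 with angiotensin II (adjusted p = 0.139) and 0.48 ± 0.16 with torcetrapib (adjusted p = 0.227), and neither passed. Between the treatments it differed by -0.05 (adjusted p = 0.901).

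BHLHE41 was the only clock gene whose main probe set had all angiotensin II arrays above all DMSO arrays and all torcetrapib arrays below them. Its DMSO arrays all stood at 10.22, the angiotensin II arrays at 10.40, 10.32 and 10.43, and the torcetrapib arrays at 10.06, 10.04 and 9.99. The order was thus angiotensin II, DMSO, torcetrapib on every array. The share of all genes with such an order was not counted. The rise with angiotensin II was 0.16 ± 0.05 (adjusted p = 0.0420), and the difference of -0.19 ± 0.05 with torcetrapib missed the threshold by limma (adjusted p = 0.0558). Between the treatments the difference was -0.36 ± 0.05, or 1.28-fold, with an adjusted p of 9.12e-05.

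Those calls on BHLHE41 rest on 1 probe set, 221530_s_at. The 3 other probe sets of the gene were dimmer and gave changes of 0.28, -0.24 and 0.07 with angiotensin II and of 0.33, 0.27 and 0.03 with torcetrapib, and none passed. With the mean of all 4 the difference between the treatments was 0.035, of the opposite sign, and without the _x_at and _s_at types of probe set it was -0.05 (adjusted p = 0.757). Without any 1 of DMSO replicates 1, 2 or 3, angiotensin II replicates 1 or 3, or torcetrapib replicates 1 or 2, the rise with angiotensin II was 0.14 to 0.17 and its adjusted p 0.0661 to 0.152. With the 5′ to 3′ index as a covariate the rise was 0.17 and did not pass (adjusted p = 0.0703 by limma). Without DMSO replicate 2 or without angiotensin II replicate 2, the difference between torcetrapib and DMSO passed (-0.19 in either case, adjusted p = 0.0402 and 0.0354).

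**Figure D2:**
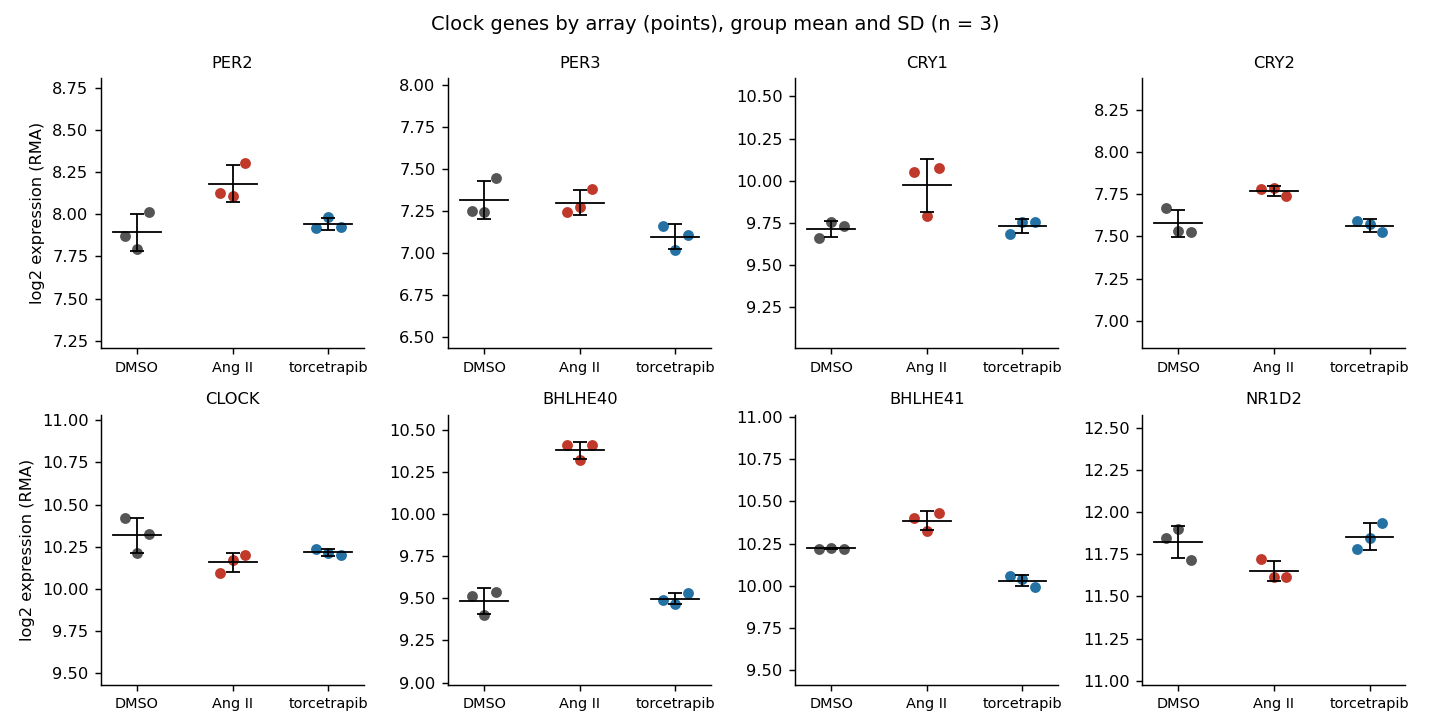
Log2 expression (y axis) of the main probe set of each of the 8 clock genes on every array (points), with the mean and SD of each group of 3. The angiotensin II arrays of BHLHE40 (10.32 to 10.41) stand above all other arrays (9.40 to 9.54), and those of BHLHE41 above DMSO with torcetrapib below it.

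PER2 codes for a period protein, the scaffold of the repressor complex with CRY. It was at 7.87, 7.79 and 8.01 with DMSO, at 8.13, 8.11 and 8.31 with angiotensin II and at 7.92, 7.99 and 7.93 with torcetrapib. The angiotensin II arrays lay above the other 6. The rise was 0.29 ± 0.08 (adjusted p = 0.0402), the change with torcetrapib 0.05 (95% interval -0.12 to 0.22, adjusted p = 0.845), and torcetrapib against angiotensin II gave -0.24 ± 0.08 (adjusted p = 0.0664 by limma). The rise passed in 7 of 21 alternatives, with adjusted p from 0.0046 to 0.139. With the 5′ to 3′ index as a covariate it was 0.27 and did not pass (adjusted p = 0.0994 by limma). Without any 1 of DMSO replicates 1 or 2, angiotensin II replicates 1 or 3, or any torcetrapib replicate it was 0.23 to 0.31 (adjusted p 0.0586 to 0.139), and without DMSO replicate 2 the difference between the treatments passed (-0.24, adjusted p = 0.0437). A dim second probe set, 208518_s_at, gave 0.21 with angiotensin II (adjusted p = 0.442) and 0.43 with torcetrapib (adjusted p = 0.0881).

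PER3, a period gene that is less central to the rhythm than PER1 and PER2, was at 7.25, 7.24 and 7.44 with DMSO and at 7.24, 7.27 and 7.38 with angiotensin II, values that overlap. With torcetrapib it was at 7.16, 7.02 and 7.11, below all other 6 arrays. The difference from DMSO was -0.22 ± 0.09 with torcetrapib (adjusted p = 0.274 by limma) and -0.01 with angiotensin II (95% interval -0.20 to 0.17). Between the treatments it was -0.20 ± 0.09 (adjusted p = 0.151), and none of these passed. Of its 3 other probe sets, all dimmer, none passed in any comparison.

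CRY1 codes for a cryptochrome, a strong repressor of the CLOCK and BMAL1 pair. Its levels were 9.66, 9.76 and 9.73 with DMSO, 10.05, 9.79 and 10.07 with angiotensin II and 9.69, 9.76 and 9.76 with torcetrapib. Angiotensin II replicate 2 lay just above the DMSO arrays and the other 2 well above them. The rise was 0.26 ± 0.07 (adjusted p = 0.0312), and torcetrapib was 0.24 ± 0.07 below angiotensin II on the log2 scale (adjusted p = 0.0304 by limma). The change with torcetrapib was 0.02 (95% interval -0.13 to 0.16). The rise passed in 9 of 21 alternatives. Without any 1 of DMSO replicates 1 or 3, angiotensin II replicates 1 or 3, or torcetrapib replicates 1 or 2 it was 0.21 to 0.26 (adjusted p 0.0533 to 0.156). The difference between the treatments was lost without angiotensin II replicate 1 or 3 or any torcetrapib replicate (-0.25 to -0.19, adjusted p 0.0733 to 0.139).

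CRY2, the other cryptochrome, was at 7.67, 7.53 and 7.53 with DMSO, at 7.78, 7.79 and 7.74 with angiotensin II and at 7.59, 7.58 and 7.52 with torcetrapib. The angiotensin II arrays lay above the other 6 here too, by a small margin. The difference of 0.19 ± 0.07 from DMSO had an adjusted p of 0.165, and that of -0.20 ± 0.07 between the treatments one of 0.0849 by limma, so neither passed. CRY1 and CRY2 each have 1 probe set on the array.

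CLOCK codes for the activator that the other proteins restrain. Its main probe set was at 10.42, 10.21 and 10.32 with DMSO, at 10.09, 10.17 and 10.20 with angiotensin II and at 10.24, 10.21 and 10.20 with torcetrapib. The angiotensin II arrays lay below DMSO without overlap, the lowest DMSO array being replicate 2. The difference was -0.16 ± 0.05 (adjusted p = 0.104 by limma) and did not pass. Without DMSO replicate 2 it was -0.22 (adjusted p = 0.0183), and with the 5′ to 3′ index as a covariate also -0.22 (adjusted p = 0.0142). With torcetrapib the difference from DMSO was -0.10 (95% interval -0.22 to 0.01). Its 3 other probe sets gave -0.08, -0.02 and -0.02 with angiotensin II, and their groups overlap.

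NR1D2 codes for REV-ERB beta, a heme-binding nuclear receptor that represses BMAL1. Its main probe set was at 11.85, 11.90 and 11.72 with DMSO, at 11.72, 11.61 and 11.62 with angiotensin II and at 11.78, 11.85 and 11.94 with torcetrapib. DMSO replicate 3 met the highest angiotensin II array, and the torcetrapib arrays lay above all angiotensin II arrays. The difference with angiotensin II was -0.17 ± 0.05 (adjusted p = 0.0601), and torcetrapib was 1.15-fold above angiotensin II (0.20 ± 0.05, adjusted p = 0.0157 by limma). Without DMSO replicate 3 or angiotensin II replicate 1 the former passed (-0.22 and -0.21, adjusted p = 0.0184 and 0.0480). The latter, in fits that left out angiotensin II replicate 2 or 3 or torcetrapib replicate 2 or 3, did not pass (0.16 to 0.21, adjusted p 0.0516 to 0.0919).

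The second NR1D2 probe set, 209750_at, went against the first in the comparison of the treatments. It was at 11.51, 11.43 and 11.51 with DMSO, at 11.40, 11.51 and 11.40 with angiotensin II and at 11.24, 11.13 and 11.20 with torcetrapib. The torcetrapib arrays lay below the other 6, whereas on the first probe set they overlapped DMSO and lay above angiotensin II. In the fit over all probe sets the difference from DMSO was -0.29 ± 0.04 with torcetrapib (adjusted p = 0.0141) and -0.05 with angiotensin II (adjusted p = 0.754), and between the treatments it was -0.25 ± 0.04 (adjusted p = 0.00583 by limma). Without DMSO replicate 1 or 3, or torcetrapib replicate 2 or 3, the difference from DMSO was -0.30 to -0.26 (adjusted p 0.0593 to 0.0863). With the index as a covariate it was -0.24 (adjusted p = 0.243), and the difference between the treatments was -0.16 (adjusted p = 0.630). No direction is given for NR1D2 as a gene, since its 2 probe sets differ in sign between the treatments.

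**Figure D3:**
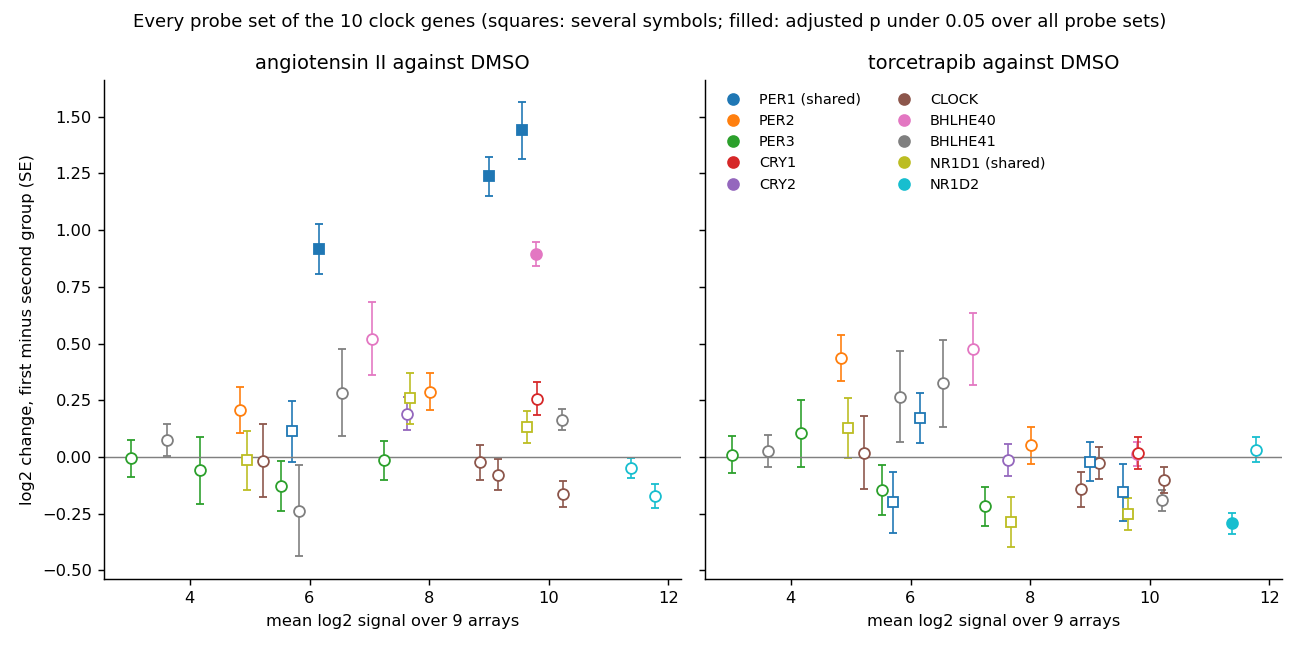
Log2 change against DMSO (y axis, bars are SE) of every probe set of the 10 clock genes against its mean log2 signal over 9 arrays (x axis), for angiotensin II (left) and torcetrapib (right); squares carry several gene symbols, and filled marks passed an adjusted p of 0.05 over all 54613 probe sets. For angiotensin II the filled marks are the main BHLHE40 probe set (0.90) and 3 probe sets shared by PER1 (0.92 to 1.44), and for torcetrapib the second NR1D2 probe set (-0.29).

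PER1, the period gene that responds fastest to hormones and cAMP in many cells, has 4 probe sets here, each of which also carries the symbol MIR6883, a microRNA gene that lies wholly inside PER1. The design accession of 202861_at is a PER1 transcript in RefSeq. The probe sets were tested in a limma fit over all 54613 probe sets, which called 2.9% of them for angiotensin II against DMSO, 0.663% for torcetrapib against DMSO and 9.18% for torcetrapib against angiotensin II. No level is assigned to PER1 alone.

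Probe set 202861_at was at 9.33, 8.79 and 9.26 with DMSO, at 10.54, 10.61 and 10.56 with angiotensin II and at 9.06, 9.09 and 8.77 with torcetrapib. The angiotensin II arrays stood far above the other 6, which overlapped. The rise was 1.44 ± 0.12, or 2.71-fold (adjusted p = 2.18e-05 by limma over all probe sets), and torcetrapib differed from DMSO by -0.16 (95% interval -0.43 to 0.11, adjusted p = 0.680). Torcetrapib was 3.02-fold below angiotensin II (-1.60 ± 0.12, adjusted p = 1.30e-05).

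The other bright probe set of the PER1 locus showed the same order. Probe set 36829_at was at 8.73, 8.39 and 8.66 with DMSO, at 9.81, 9.84 and 9.85 with angiotensin II and at 8.59, 8.66 and 8.48 with torcetrapib, a rise of 1.24 ± 0.08 with angiotensin II (adjusted p = 2.70e-06 by limma) and a change of -0.02 with torcetrapib (95% interval -0.21 to 0.16). Probe set 244677_at rose by 0.92 ± 0.11 (adjusted p = 0.000375), from 5.75, 5.90 and 5.76 to 6.71, 6.90 and 6.55, and was at 6.05, 5.83 and 6.05 with torcetrapib. The remaining one, 242832_at, was dim and did not pass (0.11, adjusted p = 0.821). The 3 rises held whichever array was left out and with the index as a covariate.

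NR1D1 codes for REV-ERB alpha, and its 3 probe sets also carry THRA, a thyroid hormone receptor gene that overlaps it, so no level is assigned to NR1D1 alone. The design accession of 204760_s_at is an NR1D1 transcript in RefSeq. That probe set was at 7.87, 7.62 and 7.57 with DMSO, at 7.94, 7.95 and 7.96 with angiotensin II and at 7.38, 7.63 and 7.20 with torcetrapib. Torcetrapib lay below angiotensin II without overlap (-0.54 ± 0.11, adjusted p = 0.00991 by limma over all probe sets), while the differences from DMSO, 0.26 with angiotensin II (adjusted p = 0.350) and -0.29 with torcetrapib (adjusted p = 0.297), did not pass.

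The brightest probe set of this pair, 31637_s_at, was at 9.86, 9.56 and 9.63 with DMSO, at 9.79, 9.87 and 9.77 with angiotensin II and at 9.42, 9.42 and 9.44 with torcetrapib. The torcetrapib arrays lay below the other 6. The difference between the treatments was -0.38 ± 0.07 (adjusted p = 0.00668 by limma), and that from DMSO -0.25 with torcetrapib (adjusted p = 0.157), which passed without DMSO replicate 2 (-0.31, adjusted p = 0.0252). With the 5′ to 3′ index as a covariate the differences between the treatments were -0.13 (adjusted p = 0.842) for 31637_s_at and -0.36 (adjusted p = 0.734) for 204760_s_at. The third, 217476_at, was dim and did not pass in any comparison.

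**Figure D4:**
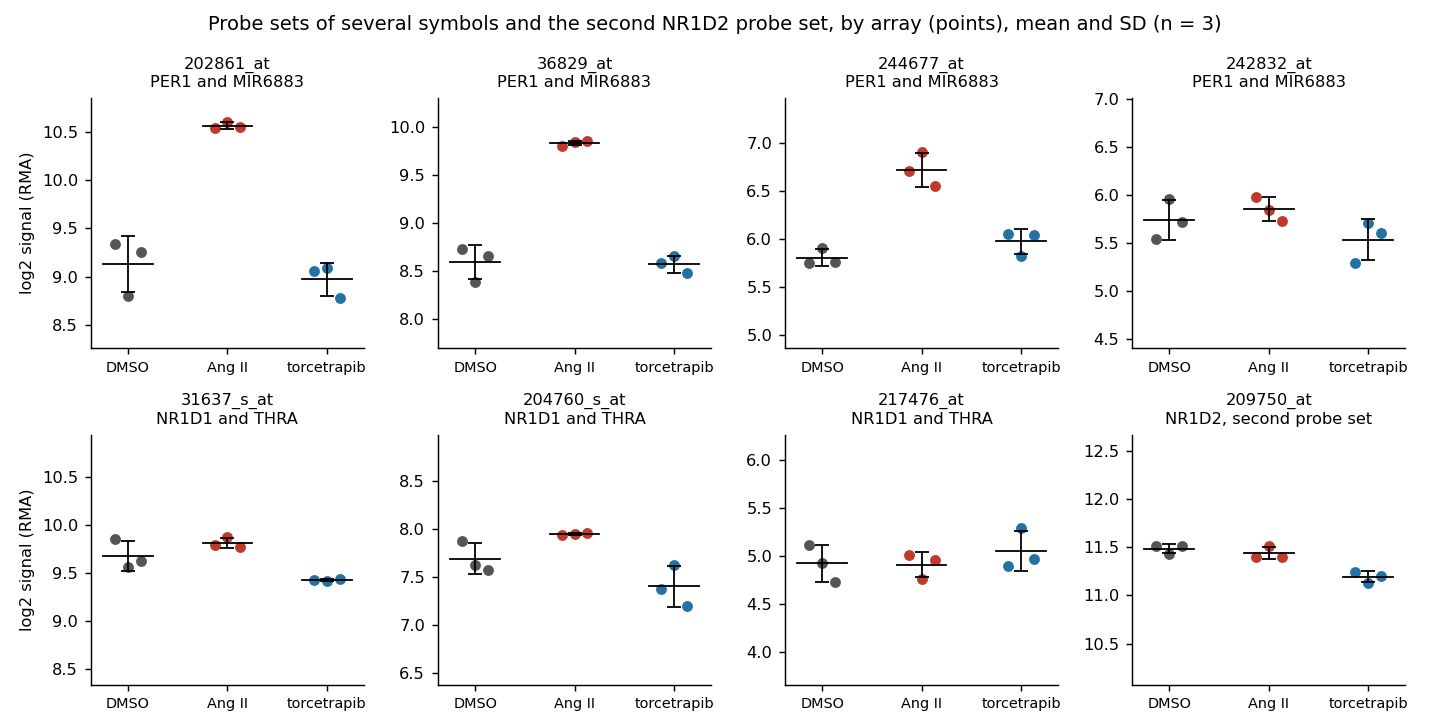
Log2 signal (y axis) of the 4 probe sets that carry PER1 and MIR6883, the 3 that carry NR1D1 and THRA, and the second NR1D2 probe set on every array (points), with the mean and SD of each group of 3. On 202861_at the angiotensin II arrays lie at 10.54 to 10.61 and all other arrays at or below 9.33.

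Across the other genes of the clock machinery, 23 of 26 listed genes were measured by a probe set of their own. Angiotensin II raised 3 and lowered 2 of the 23, where 6.12% of all genes were called, with changes from -0.49 to 2.91 and a median of -0.02. Torcetrapib raised 1 and lowered 0 against DMSO, where 1.16% of all genes were called, and the difference between the treatments was called higher for 2 and lower for 4, where 11.3% of all genes were called. With the 5′ to 3′ index as a covariate that count of 6 became 1, NFIL3, where 1.42% of all genes were called.

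NFIL3, a bZIP repressor of D-box genes, rose with both treatments, by 2.91 ± 0.06 with angiotensin II (adjusted p = 4.70e-14) and by 1.00 ± 0.06 with torcetrapib (adjusted p = 1.98e-07 by limma). Torcetrapib against angiotensin II gave -1.91 ± 0.06 (adjusted p = 2.11e-11 by limma). DBP, an activator at the same boxes, fell by 0.49 ± 0.06 with angiotensin II (adjusted p = 3.62e-05), whereas its brightest probe set that is not of the _x_at or _s_at type gave -0.06 (adjusted p = 0.885). With torcetrapib DBP differed from DMSO by -0.22 ± 0.06, which did not pass (adjusted p = 0.0842 by limma). Its difference of 0.27 ± 0.06 between the treatments passed (adjusted p = 0.00669). With the mean of its probe sets that difference was 0.12 (adjusted p = 0.282).

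SIRT1, a deacetylase that acts on clock proteins, was at 8.25, 7.96 and 8.23 with DMSO, at 8.83, 8.81 and 8.75 with angiotensin II and at 8.30, 8.33 and 8.38 with torcetrapib. All 3 groups were apart, with angiotensin II highest. The rise of 0.65 ± 0.08 with angiotensin II passed (adjusted p = 3.66e-05 by limma) and the difference of 0.19 ± 0.08 with torcetrapib did not (adjusted p = 0.285). Between the treatments the difference was -0.46 ± 0.08 (adjusted p = 0.00112 by limma).

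CSNK1E, a casein kinase that marks PER proteins for turnover, rose by 0.30 ± 0.08 with angiotensin II (adjusted p = 0.0267) and was lower by 0.38 ± 0.08 on the log2 scale with torcetrapib than with angiotensin II (adjusted p = 0.00431 by limma). Leaving out DMSO array 1 or 2, or angiotensin II array 2 or 3, ended the call of the rise against DMSO (0.26 to 0.30, adjusted p 0.0743 to 0.0912). RORB, a nuclear receptor, fell by 0.15 ± 0.04 with angiotensin II (adjusted p = 0.0318), and was at -0.14 with torcetrapib (adjusted p = 0.114). That fall was lost without DMSO replicate 1 or 3, angiotensin II replicate 1 or 3 or torcetrapib replicate 1 (-0.16 to -0.13, adjusted p 0.0594 to 0.158). With the mean of the RORB probe sets, torcetrapib was 0.42 above angiotensin II on the log2 scale (adjusted p = 0.000324 by limma). On the main probe set that difference was 0.01 (adjusted p = 0.884).

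Between the treatments, CSNK1D, a kinase close to CSNK1E, was lower with torcetrapib (-0.23 ± 0.06, adjusted p = 0.0262) and BMAL2, a relative of BMAL1, higher (0.64 ± 0.16, adjusted p = 0.0173 by limma). The CSNK1D call was lost without angiotensin II replicate 1 or 3 or any torcetrapib replicate (-0.24 to -0.20, adjusted p 0.0738 to 0.0942), and CSNK1D passed against DMSO without DMSO replicate 2 (-0.25, adjusted p = 0.0177). For BMAL2 the call was lost without angiotensin II replicate 1 or 2 or torcetrapib replicate 2 (0.55 to 0.64, adjusted p 0.0531 to 0.0881), and its difference with torcetrapib from DMSO was 0.32, or 0.58 without DMSO replicate 2 (adjusted p = 0.00385). The main BMAL2 probe set is of the _x_at type. Without _x_at and _s_at probe sets its difference between the treatments was -0.19 (adjusted p = 0.298 by limma). With the index as a covariate the differences between the treatments were -0.33 for CSNK1E (adjusted p = 0.463), -0.08 for CSNK1D (adjusted p = 0.906), -0.10 for BMAL2 (adjusted p = 0.935), -0.22 for SIRT1 (adjusted p = 0.624) and 0.25 for DBP (adjusted p = 0.430), and none of these passed. BMAL1 itself, the partner of CLOCK, averaged 7.26 ± 0.07 (SD, n = 3) over the DMSO arrays, 7.33 ± 0.08 over those of angiotensin II and 7.33 ± 0.03 over those of torcetrapib, and did not pass in any comparison (adjusted p from 0.763 to 0.995). The other 15 genes, among them TEF, RORA, NPAS2, CIART and TIMELESS, did not pass in any of the 3 comparisons.

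**Figure D5:**
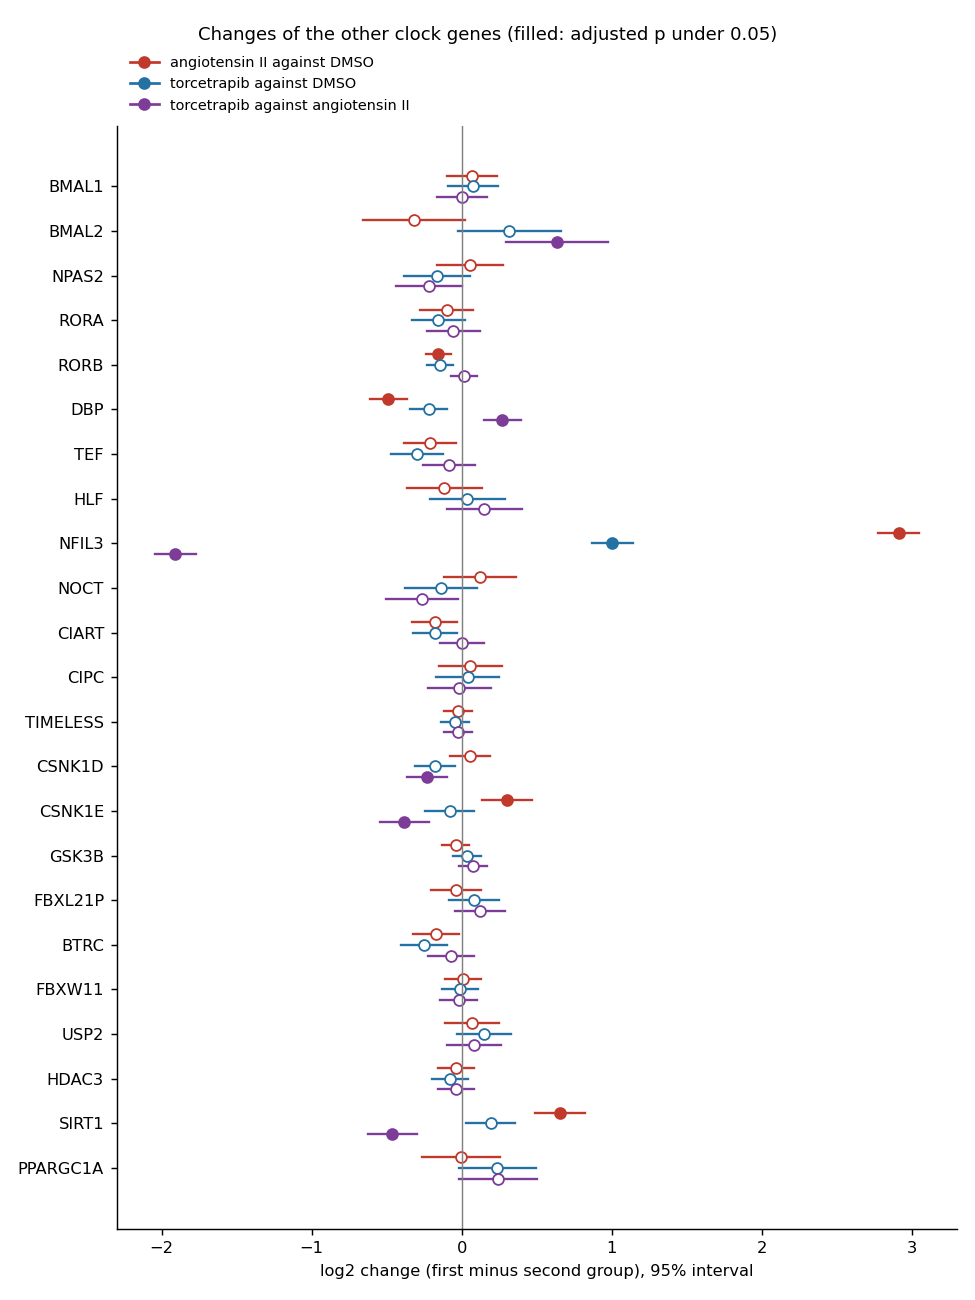
Log2 change of the 23 other clock genes in the 3 comparisons (x axis, first minus second group), with 95% intervals; filled points passed limma's adjusted threshold of 0.05. NFIL3 stands apart at 2.91 for angiotensin II and 1.00 for torcetrapib against DMSO, and the intervals of most other genes reach 0.

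BHLHE40 was the only one of the 8 genes with a called change of at least 0.5 against DMSO, and the genes closest to it over the 9 arrays were sought among 14830 genes. Likeness was measured as the root mean square difference of gene-centred log2 values, where a smaller value is closer. The closest were ZNF641 (0.0401), DUSP14 (0.0549), ING1 (0.0551), SLC25A25 (0.0584) and MYADM (0.0653). These 5 rose by 0.88 to 0.96 with angiotensin II, as BHLHE40 did by 0.90, and stood between -0.04 and 0.10 with torcetrapib. They were picked for likeness on the same arrays, so their like changes follow from that choice.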

How the data were processed

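Expression was measured on 9 Affymetrix arrays of H295R RNA. The authors deposited log2 values for each probe set after RMA, per the submitters' processing notes. Which program and probe definitions they used is not given in the sources used here. Of 54675 probe sets, 62 controls were left out; 41091 carried 1 gene symbol, 1801 several and 11721 none. A gene's value was its single-symbol probe set with the highest 9-array mean, without further normalisation or filter.

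Tests used limma 3.58.1 (R 4.3.3), with 3 group means over all 9 arrays and an intensity trend. Two-sided p-values were adjusted across all 19775 genes by the Benjamini-Hochberg method; 95% intervals are unadjusted. The script was tested on simulated data. A second fit over all 54613 probe sets, added after seeing the data, covers those of several symbols. The number of arrays limits precision. A change written ± carries its standard error.

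The clock genes and lists were chosen with earlier results of these data known. All 10 were named, with the other clock genes past the threshold in any comparison and the 5 genes most like any clock gene changed by at least 0.5. Of the other clock genes listed, 3 are not analysed here. Alternatives covered moderation, filtering, normalisation, probe set choice, array weights, arrays left out and the 5′ to 3′ index.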

Additional observations from a re-analysis of the deposited data

How the results depend on the processing

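Results on genes were recomputed under 20 or 21 alternatives, and those on single probe sets under 14. The count of 4 clock genes called with angiotensin II against DMSO became 1, BHLHE40, without the intensity trend, with arrays centred on their medians, with the mean of probe sets, with every single-symbol probe set tested, with only the 2 groups compared and with all probe sets tested. In those settings 2.9% to 4.82% of all genes or probe sets were called. The count became 2 without _x_at and _s_at probe sets, where BHLHE40 has no value and 5.3% of all genes were called. It was 1 to 4 with an array left out (4.83% to 5.92% of all genes called). It was 1 without DMSO replicate 1, angiotensin II replicate 3 or torcetrapib replicate 1 or 2, and 2 without angiotensin II replicate 1. It became 5 with robust moderation, with the dimmest genes left out and with array weights, where 6.39%, 8.89% and 13.7% of all genes were called. With the 5′ to 3′ index as a covariate it was 3, 2 higher and CLOCK lower, where 5.47% of all genes were called. The count of 0 with torcetrapib became 1 (BHLHE41, lower) with robust moderation, the dimmest genes (below 4.87) left out, quantile normalisation or array weights. There 1.37%, 1.94%, 2.56% and 6.43% of all genes were called, in that order. With an array left out that count was 0 to 1, where 0.42% to 4.64% of all genes were called. The count of 4 between the treatments became 2 without the trend (7.54% of all genes called) and without _x_at and _s_at probe sets (9.25%). It was also 2 with the index as a covariate, where 1.42% of all genes were called. It became 7 with quantile normalisation (15.5%) and with array weights (31.4%). With an array left out it was 2 to 5, where 6.83% to 13.4% of all genes were called. It was 2 without angiotensin II replicate 3 or torcetrapib replicate 2 or 3. Array weights gave 6.15 to angiotensin II replicate 1 and called 31.4% of all genes between the treatments.

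Some changes turned sign. With the mean of probe sets, torcetrapib against DMSO gave 0.11 for BHLHE41, -0.13 for NR1D2 and 0.17 for RORB, and torcetrapib against angiotensin II gave 0.035 for BHLHE41 and -0.020 for NR1D2. Without _x_at and _s_at probe sets, torcetrapib against DMSO gave 0.027 for BHLHE41 and -0.12 for BMAL2, angiotensin II against DMSO gave 0.068 for BMAL2, and the treatments differed by -0.19 for BMAL2 and -0.026 for DBP. With array weights BHLHE40 gave -0.0070 with torcetrapib. With the index as a covariate, torcetrapib against DMSO gave -0.051 for CRY1, 0.068 for CRY2, 0.015 for CLOCK, -0.0063 for NR1D2, -0.19 for BMAL2, 0.16 for probe set 202861_at and 0.17 for 36829_at, and the treatments differed by -0.10 for BMAL2. With an array left out, the change ranged from -0.056 to 0.051 for PER3, from -0.018 to 0.10 for CSNK1D and from -0.11 to 0.081 for probe set 217476_at with angiotensin II. With torcetrapib it ranged from -0.0097 to 0.040 for CRY1, from -0.039 to 0.034 for CRY2, from -0.030 to 0.041 for BHLHE40, from -0.020 to 0.072 for NR1D2 and from -0.12 to 0.048 for 36829_at, and between the treatments from -0.017 to 0.046 for RORB. The cause was not tested in any of these. No paired analysis was possible because the serial numbers in the titles differ between the groups.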

Other observations

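Equal values on 2 or more arrays occurred for 48.9% of all genes, and for 4 of the 8 clock genes.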
